A study of Mus musculus with 9 samples.

Results

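The mRNA of cultured mouse spermatogonial stem cells (SSCs) that had lost Prmt5 and been given wild-type PRMT5 was compared with that of the same kind of cells without it. SSCs are the germ cells of the testis that renew themselves and supply sperm production. The comparison holds 6 of the 9 libraries of the series, 3 of PRMT5 (WT) and 3 of 4OHT alone, and covers the 22452 of 53801 deposited genes that passed a filter on low counts. By the study's account the cells came from Prmt5 flox/flox; Rosa26-CreERT2 mice and 4OHT (4-hydroxytamoxifen, 1 µM) was used to delete the floxed gene. CreERT2 is a recombinase that 4OHT activates, and the Rosa26 locus is active in most cell types, so the deletion is not restricted to germ cells. Cells of all 9 libraries were given 4OHT, the controls included. The PRMT5 (WT) libraries came from cells that also received the wild-type protein by lentivirus, and the 3 libraries of PRMT5 (E444Q) from cells that received a catalytically dead form. The E444Q libraries serve here only as a second reference. The labels shorten the constructs to OE and MU, which were read as PRMT5 (WT) and PRMT5 (E444Q). Whether a line was a single clone, and what vector the controls carried, is not given in the sources used here. Nothing in the labels says that the 3 libraries of a group came from separate cultures, so the p-values measure only the spread between these libraries, which may be technical.

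PRMT5 places symmetric dimethyl marks on arginines of histones, of the Sm proteins that form the core of the splicing machinery, and of many other proteins, together with its partner WDR77. In the male germline it also modifies PIWI proteins, which Tudor domain proteins then bind in the piRNA pathway that silences transposons. Cultured SSCs renew themselves under GDNF and FGF, which signal through the ERK kinases and switch on transcription factors as well as the DUSP phosphatases, Sprouty and SPRED proteins that damp the same pathway. SSCs are usually grown on fibroblast feeder cells, whose RNA can enter a bulk library. In bulk samples, fewer cells of a type and less RNA per cell cannot be told apart.

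The deposited values are counts per gene. Total counts were between 78751996 and 95370711 with 4OHT alone and between 79941857 and 154557863 with PRMT5 (WT), and a read pair was taken as about 4 counts. Below, levels are in CPM, a gene's counts divided by the scaled total of the library and set to a common total, after TMM scaling, and a difference is the log2 fold change of PRMT5 (WT) against 4OHT alone with its standard error (SE), from edgeR's quasi-likelihood test on all 9 libraries with Benjamini-Hochberg adjustment. A gene is said to have risen or fallen when its adjusted p was under 0.05. Of the 22452 genes, 6711 rose (29.9%) and 6256 fell (27.9%), and with a change of at least 2-fold added, 2116 rose (9.42%) and 2798 fell (12.5%). The 3 libraries of each group did not overlap in 13827 genes (61.6%). The median log2 fold change of all genes tested was 0.02, so the share of called members in a list has to be read against a background in which most genes were called. Against PRMT5 (E444Q), 237 genes were higher (1.06%) and 475 lower (2.12%) with PRMT5 (WT). Of the 2116 genes that rose by at least 2-fold, 146 were also higher than with PRMT5 (E444Q). Of the 2798 that fell by as much, 344 were also lower than with it. At least 16-fold changes were reached by 266 rising and 123 falling genes.

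Prmt5 (ENSMUSG00000023110), on chromosome 14 of GRCm38 at chr14:54507187-54517525 on the minus strand, checked the labels. It was at 31.9, 30.8 and 28.2 CPM with 4OHT alone and at 1072, 1071 and 1085 CPM with PRMT5 (WT). The groups lay far apart, with a log2 fold change of 5.15 (SE 0.058, adjusted p = 1.87e-15 from edgeR). With PRMT5 (E444Q) the mean was 146.1 CPM, 2.88 lower than with PRMT5 (WT) on the log2 scale. In every comparison of PRMT5 (WT) with PRMT5 (E444Q) below, the level of Prmt5 RNA and the catalytic activity therefore cannot be told apart. By the study's western blots, either construct restored the PRMT5 protein level. Transcripts of the construct and of the endogenous gene are counted together. Among the partners of PRMT5, Wdr77 rose from 159 ± 5.00 to 243 ± 3.63 CPM (SD, n = 3 in each group) and Coprs, which recruits PRMT5 to histones, by 0.66, while Riok1, an adaptor for ribosomal substrates, fell by 0.65 on the log2 scale. Clns1a, the adaptor for Sm proteins, changed by -0.05 and did not pass the test. Of the 8 other arginine methyltransferases tested, 4 rose and 1 fell, all by less than 2-fold.

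**Figure D1:**
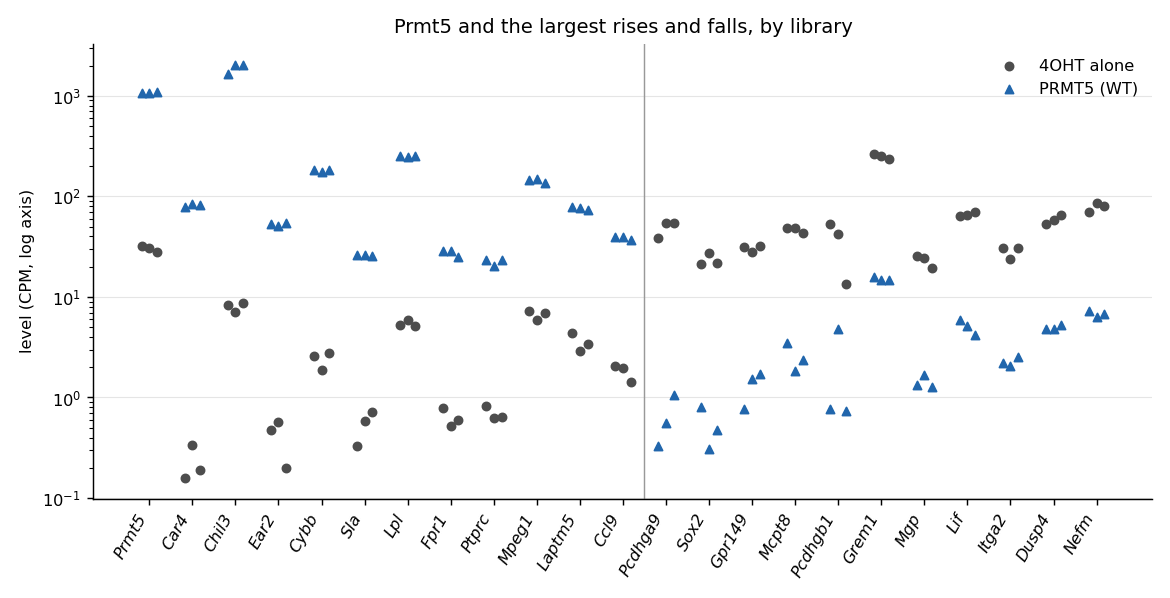
Level of 23 genes in each of the 6 libraries, in CPM on a log axis, with Prmt5 first, then the 11 other genes with the largest rises and 11 of those with the largest falls among abundant protein-coding genes. Circles are the 3 libraries of 4OHT alone and triangles the 3 of PRMT5 (WT). In none of the genes do the groups overlap, and the group means lie more than 10-fold apart in each.

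The largest rises among protein-coding genes of at least 20 CPM were, apart from Prmt5 itself, mostly genes that myeloid cells express. Car4, a carbonic anhydrase, was at 0.158, 0.335 and 0.19 CPM with 4OHT alone and at 77.6, 83.2 and 81.2 CPM with PRMT5 (WT), a rise of 8.46 on the log2 scale (SE 0.13). Its levels with 4OHT alone lie near the 0.134 to 0.158 CPM that 12 counts stand for there, so the size of the rise is uncertain. Chil3, a chitinase-like secreted protein of macrophages, was at 8.29, 7.04 and 8.75 CPM and at 1654, 2041 and 2033 CPM, a change of 7.89 (SE 0.11). The next was Ear2, an eosinophil-associated ribonuclease (7.00). The 3 tested genes of its family together reached at most 0.622 CPM with 4OHT alone, so the size of this rise is uncertain too. After it came Cybb, the catalytic subunit of the phagocyte NADPH oxidase (6.22), Sla, an adaptor of lymphoid and myeloid receptors (5.55), and Lpl, lipoprotein lipase (5.53). Fpr1, a receptor for bacterial formyl peptides, rose by 5.43, Ptprc, which encodes CD45, by 5.01, the macrophage perforin Mpeg1 by 4.43, the lysosomal protein gene Laptm5 by 4.42 and the chemokine gene Ccl9 by 4.42. All of them were also higher with PRMT5 (WT) than with PRMT5 (E444Q), by between 0.61 (Ear2) and 2.49 (Car4) on the log2 scale, with adjusted p-values from 1.32e-09 to 0.00574 from edgeR.

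Of 20 macrophage marker entries tested, 15 rose, each by at least 2-fold, and none fell, with a median log2 fold change of 3.61 against 0.02 for all genes. Against PRMT5 (E444Q), 13 of the 20 were higher and none lower. The summed level of the list was between 199 and 212 CPM with 4OHT alone and between 2487 and 2605 CPM with PRMT5 (WT). Lyz2, the lysozyme of macrophages, made up most of it, at 158, 151 and 145 CPM and at 1863, 1937 and 1834 CPM. The transcription factor gene Spi1 rose by 5.03 and the receptor gene Csf1r by 4.08. Fcgr1, Aif1 and Cx3cr1, which many macrophages express, were below 0.6 CPM in the mean of both groups and did not pass. A second list, of macrophages that handle complement and lipids, went the other way. Of its 8 genes, 7 fell, all by at least 2-fold, and 1 did not pass. Apoe, the apolipoprotein E gene, was at 53.04, 54.9 and 47.3 CPM with 4OHT alone and at 8.17, 11.2 and 10.1 CPM with PRMT5 (WT). Gpnmb fell by 1.39 and C1qc, a chain of complement C1q, by 2.99 on the log2 scale. A list of genes typical of alveolar-type macrophages, which holds Chil3, Car4 and Ear2, had 14 of 17 genes higher and 1, Ctsk, lower. This list was chosen with earlier results of these data known, and Chil3, Car4 and Ear2 are among the largest rises above. Its count is therefore not separate evidence. Its lipid genes were among those that rose, with Pparg, a nuclear receptor of lipid metabolism, at 0.353 and 5.10 CPM in the group means. Of 8 adipocyte markers, Lpl and Pparg among them, 6 rose and none fell. This list shares Pparg, Fabp4 and Cidec with the alveolar-type list, so the counts are not separate evidence. Of 6 neutrophil markers tested, 3 rose and 1 fell. Of 8 markers of T and B cells, 3 rose and 3 fell. Of 4 markers of mast cells and basophils tested, 2 fell, 1 rose and 1 did not pass. Tpsab1, a mast cell tryptase, was the one that rose, from no counts in any library of 4OHT alone to a mean of 0.485 CPM. Mcpt8, a protease of basophils, was among the largest falls, at 48.2, 48.7 and 43.4 CPM with 4OHT alone and at 3.48, 1.82 and 2.34 CPM with PRMT5 (WT). The part of other cells in these changes was not tested.

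Gene families of myeloid surface receptors rose along with these markers. Of 14 genes of the Lilr, Pirb and Cd300 family of paired receptors, 12 rose and none fell, with a median of 3.27, the highest of the 78 families with at least 8 tested genes. The family has 19 deposited genes, and the tested ones summed to a mean of 10.5 CPM with 4OHT alone. A gene low in 1 group can pass the filter through another group, so this count and rank can in part reflect the filter. The same holds for the other families described here. Lilrb4 was at 3.39 and 61.0 CPM and Pirb at 0.268 and 6.02 CPM in the group means, in that order. Of 21 C-type lectins, 11 rose and 4 fell, with a median of 1.39 that became 3.49 when genes under 1 CPM were left out. Clec12a (7.75) and Clec4n (3.53) rose, while Clec2d, a ligand of natural killer receptors, fell by 1.28 on the log2 scale. Of 13 Siglecs and Fc receptors, 6 rose and 1 fell, with Siglec1 (4.11) and Fcer1g (4.96) among those that rose. These families share the libraries and in part the genes of the marker lists, so they are not separate evidence. Of 9 Ly6 genes, 5 rose and 2 fell, with Ly6e at -1.17. Of 11 vomeronasal receptors, all at low levels, 2 rose and 1 fell, and their median of 0.85 became 0.47 with the 1 gene at 0 in all libraries of a group set to its bound.

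**Figure D2:**
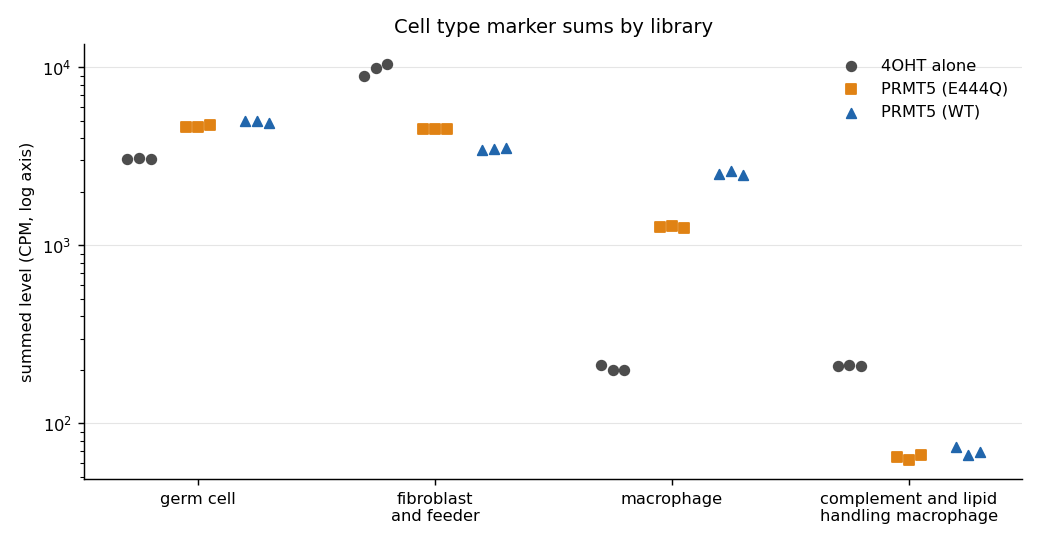
Summed CPM of 4 lists of cell type markers in each library, on a log axis, for 4OHT alone, PRMT5 (E444Q) and PRMT5 (WT). Germ cell markers lie between 3048 and 3079 CPM with 4OHT alone and between 4879 and 4970 CPM with PRMT5 (WT), fibroblast markers fall from at least 8924 CPM to at most 3537 CPM, and the 2 macrophage lists move in opposite directions.

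The labelled cell type was checked against 14 germ cell markers, which were present in all 6 libraries. Of these, 10 rose and 3 fell, and the summed level was 1.6-fold higher with PRMT5 (WT). Dazl, an RNA-binding protein required for germ cells, was at 392, 399 and 351 CPM with 4OHT alone and at 774, 772 and 825 CPM with PRMT5 (WT), a change of 1.05. Uchl1, a ubiquitin hydrolase whose protein the study used to mark undifferentiated human spermatogonia, rose by 0.89. Lin28a, in the same list, also rose. The 3 that fell also mark undifferentiated spermatogonia, so such markers moved in both directions. They are Gfra1, the GDNF co-receptor (-2.09), Nanos2 (-0.67) and Zbtb16 (-0.54). Gfra1 was at 123, 116 and 122 CPM and at 27.8, 29.1 and 27.9 CPM. Fibroblast and feeder markers were abundant with 4OHT alone, where their sum was 8924, 9863 and 10480 CPM, and lower with PRMT5 (WT), at 3438, 3485 and 3537 CPM. Of 18 genes, 17 fell and none rose, with a median of -1.24, and 15 were also lower than with PRMT5 (E444Q). The fall was uneven. Vim, the intermediate filament vimentin, was at 1564, 1731 and 1836 CPM and at 362, 380 and 389 CPM (-2.18), and Twist2, a mesenchymal transcription factor, fell by 2.36, whereas Dcn, the matrix proteoglycan decorin, was at 408, 372 and 401 CPM and at 325, 323 and 337 CPM and fell by only 0.26 on the log2 scale. Xist, the RNA that coats the inactive X chromosome of female cells, was at 157, 155 and 131 CPM and at 42.0, 34.3 and 38.1 CPM (-1.96). Of 4 Y-linked genes, 1 rose (Eif2s3y, 0.39) and none fell. Spermatogonia themselves are male cells. Whether the lists described below moved with the number of fibroblasts or of germ cells was not tested, and the marker sums above stand beside each of them. This holds for the piRNA, meiotic, replication, p53, G1, ERK feedback, growth factor, matrix and contractile genes alike.

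Genes of the germline silencing and meiotic programmes rose as a group. Of 22 piRNA pathway genes tested, 21 rose and none fell, against the 29.9% of all genes that rose, and their median was 0.71 on the log2 scale. The PIWI gene Piwil2 was at 498, 498 and 542 CPM with 4OHT alone and at 870, 841 and 826 CPM with PRMT5 (WT) (0.72). Mael, a nuage protein of the pathway, was at 177, 152 and 157 CPM and at 359, 361 and 356 CPM (1.15), and the RNA helicase gene Mov10l1 rose by 0.65. Tdrd1, a Tudor protein that binds methylated PIWI proteins, was at 223, 221 and 231 CPM and at 338, 349 and 335 CPM (0.60). Mybl1, a transcription factor of the pathway's genes in later germ cells, was the 1 gene that did not pass (-0.07). None of the 22 differed between PRMT5 (WT) and PRMT5 (E444Q) at the adjusted threshold. Mael, Tdrd1 and Piwil2 are also in the list of germ cell markers, so the lists are not separate evidence. That list had a median of 0.74 and mean sums of 3066 CPM with 4OHT alone and 4939 CPM with PRMT5 (WT). The part of germ cell share in the rise was not tested. Among 31 genes of meiotic prophase, 26 rose and 1 fell, with a median of 0.66. Sycp1, the transverse filament of the synaptonemal complex, was at 33.1, 31.9 and 27.9 CPM and at 174, 161 and 181 CPM (2.47). Sycp2 (2.39) and Sycp3 (1.56), its lateral elements, also rose, as did the meiotic cohesins Stag3 (0.76) and Smc1b (0.95) and Tex15 (1.49), a protein of transposon silencing and meiotic repair. Spo11, the enzyme that makes meiotic breaks, was the gene that fell, from 2.30 to 0.242 CPM in the group means (-3.27). None of the 31 differed between PRMT5 (WT) and PRMT5 (E444Q) at the adjusted threshold either. Of 10 spermatid markers tested, 4 rose and 1 fell.

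Promoters of 8 lists were read from RefSeq (GRCm38.p6), from 250 bases before to 50 after each start, and searched on both strands for 7 short motifs after the results were known. The letters CACGTG, the palindromic E-box bound by basic helix-loop-helix factors, were in 7.15% of all 32851 promoters and in 9 of the 25 promoters matched to 17 piRNA pathway genes (36%), and in the other 7 lists in between 0% and 20.7%. TCCCGC, a core of E2F sites, was in 19.98% of all promoters and in 15 of 29 promoters of 25 meiotic genes (51.7%), against between 5.88% and 27.8% in the other lists. CCAAT and GGGCGG were also each in 51.7% of the meiotic promoters, against 37.41% and 35.66% of all. TGANTCA, TGACGTCA and TATAAA were less frequent there than in all promoters. GGGCGG was in between 50% and 72.4% of promoters in every list but the macrophage markers (23.5%), so its excess was general. Genes can have several overlapping promoters, and a match describes only the letters in this window. The promoters of Tdrd1 (chr19:56825959-56826258, plus strand) and Stag3 (chr5:138280259-138280558, plus strand) are shown as members that rose and hold a match close to the start, with the match in capitals, the E-box in Tdrd1 and the E2F core in Stag3. The match begins 11 bases before the start in Tdrd1 and 2 bases before it in Stag3.
Tdrd1: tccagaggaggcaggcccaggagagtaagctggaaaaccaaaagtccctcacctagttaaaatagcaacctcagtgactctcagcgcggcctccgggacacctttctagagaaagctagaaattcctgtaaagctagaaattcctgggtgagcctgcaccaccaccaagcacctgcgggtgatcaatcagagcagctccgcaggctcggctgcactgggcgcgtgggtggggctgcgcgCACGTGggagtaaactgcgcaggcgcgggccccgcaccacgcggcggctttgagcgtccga
Stag3: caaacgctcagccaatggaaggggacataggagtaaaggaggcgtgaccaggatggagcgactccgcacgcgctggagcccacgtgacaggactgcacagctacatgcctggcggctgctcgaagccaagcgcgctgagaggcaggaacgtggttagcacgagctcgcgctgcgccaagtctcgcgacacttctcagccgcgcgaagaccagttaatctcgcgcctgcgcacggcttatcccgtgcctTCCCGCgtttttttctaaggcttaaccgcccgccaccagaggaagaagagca

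Most called members of X-linked germline families also rose. Of 21 Rhox homeobox genes tested, 13 rose and none fell (median 1.14), with Rhox13 at 13.2 and 28.6 CPM and Rhox10 at 5.62 and 13.9 CPM in the group means. Among 18 Mage genes, 12 rose and 4 fell (median 1.28), but their summed level was nearly the same. Its mean was 787 CPM with 4OHT alone and 781 CPM with PRMT5 (WT). The members that rose include genes restricted to germ cells, with Magea3 at 0.699, 0.299 and 0.614 CPM and at 5.83, 5.50 and 5.95 CPM (3.43) and Mageb4 at 68.6 and 131.2 CPM in the means. The members that fell are expressed in many tissues, namely Magee1 (-2.17), Mageh1 (-1.26), Maged2 (-1.18) and Maged1 (-0.20). Many Rhox and Magea genes are near-identical copies, so reads may be split between them.

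Most genes of cell division and DNA repair rose, by smaller amounts. Of 37 DNA replication genes, 35 rose and none fell, with a median of 0.47, but only Pcna, the sliding clamp, reached 2-fold, at 77.6, 71.6 and 70.8 CPM and at 166, 162 and 168 CPM (1.17). Of the helicase subunits with the highest CPM, Mcm6 rose by 0.66, while the rises of Mcm2 (0.19) and Mcm7 (0.16) missed the threshold in several other settings. None of the 37 replication genes differed between PRMT5 (WT) and PRMT5 (E444Q) at the adjusted threshold. Of 34 spindle and kinetochore genes, 30 rose and 2, Cdc20 and Ccnb2, fell (both -0.19), with a median of 0.55. Top2a, topoisomerase II, was at 308, 290 and 310 CPM and at 527, 507 and 505 CPM (0.76), Cenpf rose by 0.93 and Nusap1, a spindle protein, by 1.39. Of 28 genes of homologous recombination and Fanconi repair, 20 rose and none fell (median 0.43). The largest rise was that of Rad54b, a DNA translocase of recombination, at 10.5, 10.9 and 10.98 CPM and at 41.6, 45.6 and 41.6 CPM (1.99), followed by Brca2 (1.41). Among 37 kinesins, the motors of spindle and transport, 23 rose and 7 fell.

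G1 regulators did not move with the S phase genes. Of 21 G1 cyclins, kinases and inhibitors, 8 rose and 10 fell. Ccnd1, cyclin D1, was at 613, 626 and 601 CPM with 4OHT alone and at 81.2, 78.5 and 75.5 CPM with PRMT5 (WT), a change of -2.97 (SE 0.048). Ccnd2 fell by 1.26 on the log2 scale, while Ccne2, cyclin E2, rose by 1.25. The inhibitors Cdkn2b (-2.57), Cdkn1a (-1.81) and Cdkn2a (-1.52) also fell, and Cdkn1b rose by 0.48. Targets of p53, the transcription factor that halts the cycle after damage, fell as a list. Of 30 genes, 24 fell, 15 of them by at least 2-fold, and 4 rose, with a median of -1.06. Ccng1, cyclin G1, was at 1084, 981 and 944 CPM and at 276, 266 and 275 CPM (-1.88). Mdm2, the ligase that degrades p53, was at 724, 664 and 701 CPM and at 258, 246 and 261 CPM (-1.45). Cdkn1a, which encodes p21, was at 431, 453 and 417 CPM and at 127, 126 and 119 CPM. Perp, an effector of p53-dependent death, had the largest fall (-3.21). The 4 that rose were Gdf15, Ddb2, Sesn1 and Tigar, of which Ddb2, a nucleotide excision repair gene, was at 9.76 and 18.0 CPM in the means (0.88). Against PRMT5 (E444Q), 8 of the 30 were lower and none higher, but most of the fall was shared. The mean summed level of the list was 5293 CPM with 4OHT alone, 2359 CPM with PRMT5 (E444Q) and 2186 CPM with PRMT5 (WT).

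**Figure D3:**
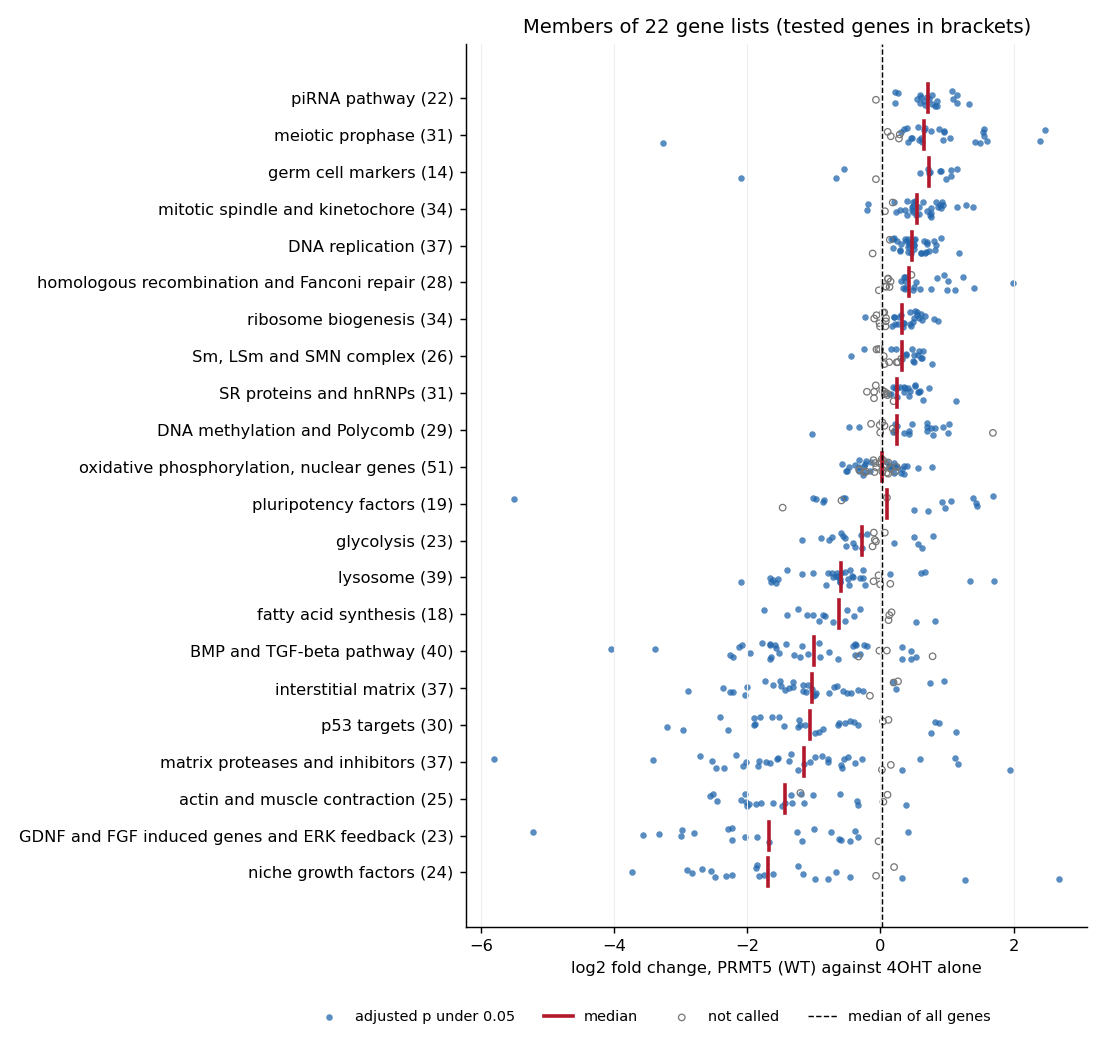
Log2 fold change of PRMT5 (WT) against 4OHT alone for every tested member of 22 gene lists, 1 point per gene, filled where the adjusted p was under 0.05, with the median of the list as a bar and the median of all genes (0.02) as a dashed line. The piRNA, meiotic, replication and spindle lists lie to the right of the line, and the ERK feedback, growth factor, contractile and matrix lists to the left.

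Genes downstream of GDNF, FGF and ERK fell. Of 23 genes induced by these factors or feeding back on ERK, 21 fell and 1 rose, against the 27.9% of all genes that fell, with a median of -1.67 and 14 falls of at least 2-fold. Dusp4, a nuclear phosphatase of ERK, was at 53.4, 58.4 and 64.8 CPM with 4OHT alone and at 4.82, 4.80 and 5.28 CPM with PRMT5 (WT), a change of -3.56 (SE 0.094). Dusp6, its cytoplasmic counterpart, was at 122, 125 and 135 CPM and at 16.0, 16.3 and 16.0 CPM (-2.98). The Sprouty genes Spry4 (-3.32), Spry2 (-2.23) and Spry1 (-0.38) fell, as did Spred1 (-0.74), Spred2 (-1.18) and Spred3 (-2.80), and the ETS factor genes Etv1 (-2.99) and Etv4 (-1.67). Egr4 was the 1 gene that rose, at 129, 181 and 161 CPM and at 214, 199 and 215 CPM (0.42). Pou3f1, a GDNF-induced factor of SSCs, changed by -0.03 and did not pass. Only 3 of the 23 were lower with PRMT5 (WT) than with PRMT5 (E444Q), and none was higher. Of 22 immediate early and AP-1 genes, in part the same genes, 18 fell and 1, Atf3, rose (median -1.04). Junb fell by 1.76, Fosl1 by 2.24 and Fosl2 by 1.55 on the log2 scale, while Egr1 fell by only 0.15, and Jund and Dusp1 did not pass. Among all 23 dual specificity phosphatases, 4 rose and 9 fell.

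Sox2, a transcription factor of pluripotent and neural cells, had a larger fall than any ERK feedback gene of at least 20 CPM. It was at 21.0, 27.3 and 21.9 CPM with 4OHT alone and at 0.7999, 0.310 and 0.472 CPM with PRMT5 (WT), a change of -5.50 (SE 0.24), with a mean of 0.761 CPM with PRMT5 (E444Q). Other pluripotency factors were divided. Of 19, 9 rose and 7 fell, with Esrrb (1.70), Zfp42 (1.45), Dppa4 (1.44) and Lin28a (1.06) higher and Klf4 (-1.01), Pou5f1 (-0.96) and Tbx3 (-0.85) lower. Nanog was at 0.517 and 0.344 CPM in the means and did not pass. Genes of other lineages also stood among the largest falls. Nefm, a neurofilament subunit, was at 69.2, 86.3 and 79.6 CPM and at 7.27, 6.25 and 6.75 CPM (-3.54). The orphan receptor gene Gpr149 was at 31.6, 28.2 and 32.3 CPM and at 0.775, 1.53 and 1.70 CPM (-4.49). Between PRMT5 (WT) and PRMT5 (E444Q), the log2 fold changes were -0.38 for Gpr149 and -0.08 for Nefm and did not pass.

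Most growth factors and most genes of the BMP and TGF-beta pathway fell, whereas WNT, NOTCH and hedgehog genes were mixed. Of 24 growth factors of the testis niche and of feeder cells, 19 fell, 15 by at least 2-fold, and 3 rose (median -1.68). Lif, a cytokine of stem cell cultures, was at 63.8, 65.7 and 70.2 CPM and at 5.91, 5.13 and 4.19 CPM (-3.73). Csf1, the macrophage growth factor, was at 589, 634 and 716 CPM and at 85.9, 86.8 and 85.7 CPM (-2.91), a direction opposite to that of its receptor Csf1r. Gdnf itself was at 5.72, 4.65 and 7.31 CPM and at 1.03, 1.42 and 0.721 CPM (-2.49). Wnt5a fell by 2.23, Cxcl12 by 2.55 and Kitl, the ligand of KIT, by 1.75 on the log2 scale. Of these 24, 10 were also lower than with PRMT5 (E444Q). Among 40 genes of the BMP and TGF-beta pathway, 31 fell and 5 rose (median -1.002). Grem1, a secreted BMP antagonist, was at 266, 251 and 237 CPM and at 15.9, 14.8 and 14.8 CPM (-4.05, SE 0.062), the largest fall of the list. Ligands (Bmp2, -3.39), receptors (Tgfbr2, -1.66), the protease Bmp1 (-2.21), the inhibitory Smad7 (-1.30) and the target Id3 (-2.13) all fell, while the signal transducer Smad2 rose by 0.54 and the receptor Tgfbr1 by 0.47. The WNT list was even, with 12 of 31 genes higher and 12 lower (38.7% each), against 35.1% and 32.3% of all protein-coding genes tested. Of 28 genes of the NOTCH and hedgehog pathways 7 rose and 12 fell. Fibroblast marker sums fell 2.8-fold between the same libraries.

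Extracellular matrix genes held the most abundant falls. Of 37 genes of the interstitial matrix, 30 fell and 4 rose (median -1.03), and their summed level went from between 22540 and 26730 CPM to between 8997 and 9157 CPM. Fn1, fibronectin, was at 4557, 4581 and 5732 CPM and at 1495, 1466 and 1505 CPM (-1.74). Tnc, tenascin C, was at 1885, 1855 and 2282 CPM and at 268, 264 and 281 CPM (-2.89). Fbln2 fell by 2.22 and Thbs1 by 2.26 on the log2 scale, whereas Fbn2, a fibrillin of developing tissue, rose by 0.96. Mgp, an inhibitor of calcification, was among the largest falls of protein-coding genes of at least 20 CPM (-4.01), as was Itga2, a collagen receptor subunit (-3.64). Of 44 collagens, 25 fell and 10 rose (median -0.83), with Col13a1 at -2.79 and Col8a2 at 1.35. Of 22 basement membrane genes, 15 fell and 1, Lama5, rose. Against PRMT5 (E444Q), 26 of the 37 interstitial matrix genes were lower and 1 was higher.

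Matrix proteases and their inhibitors fell together, 30 of 37 genes, with 5 higher (median -1.15). Mmp3, stromelysin, was at 514, 472 and 480 CPM with 4OHT alone and at 43.2, 46.5 and 47.1 CPM with PRMT5 (WT) (-3.42, SE 0.057). Mmp10, its neighbour in the same gene cluster, was at 12.7, 11.6 and 15.7 CPM and at 0.332, 0.289 and 0.140 CPM (-5.80). Timp2, an inhibitor of these enzymes, fell by 2.53 and Serpine2 by 1.82 on the log2 scale. The AP-1 letters TGANTCA were in 7.81% of all promoters and in 6 of 28 promoters of 24 genes of the list (21.4%), but in only 1 of 30 promoters of the interstitial matrix genes (3.33%) and in none of 18 of the GDNF, FGF and ERK genes. The promoter of Mmp3 (chr9:7445572-7445871, plus strand, GRCm38.p6) is shown because Mmp3 combined a high level with a large fall and holds a match, with the AP-1 letters in capitals, beginning 46 bases before the start.
Mmp3: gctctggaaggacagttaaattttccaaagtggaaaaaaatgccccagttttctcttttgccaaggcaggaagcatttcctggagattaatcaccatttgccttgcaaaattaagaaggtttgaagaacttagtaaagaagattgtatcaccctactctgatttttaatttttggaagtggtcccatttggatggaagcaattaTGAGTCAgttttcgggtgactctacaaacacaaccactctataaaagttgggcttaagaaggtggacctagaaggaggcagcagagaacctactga

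Contractile and cytoskeletal genes followed. Of 25 actin and muscle genes, 21 fell, 18 of them by at least 2-fold, and 1, Mylk, rose (median -1.44). Tagln, a smooth muscle marker, had the largest fall among those of at least 5 CPM (-2.56), and Flna (-1.61), Myh9 (-1.33) and Cald1 (-2.02), which cross-link or move actin, had the highest CPM. Annexins, which bind membranes in the presence of calcium, fell in 8 of 10 members, with Anxa5 (-1.79), Anxa2 (-1.59) and Anxa1 (-1.11). S100 proteins, partners of annexins, fell in 7 of 10 (S100a6, -2.40), although S100a6 and the sum of the family varied between the libraries of 4OHT alone, the sum from 822 to 1363 CPM. Of 28 genes of the TNF superfamily, 17 fell and 2 rose, with Tnfrsf12a at -2.33 and Tnfrsf1a at -1.22.

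**Figure D4:**
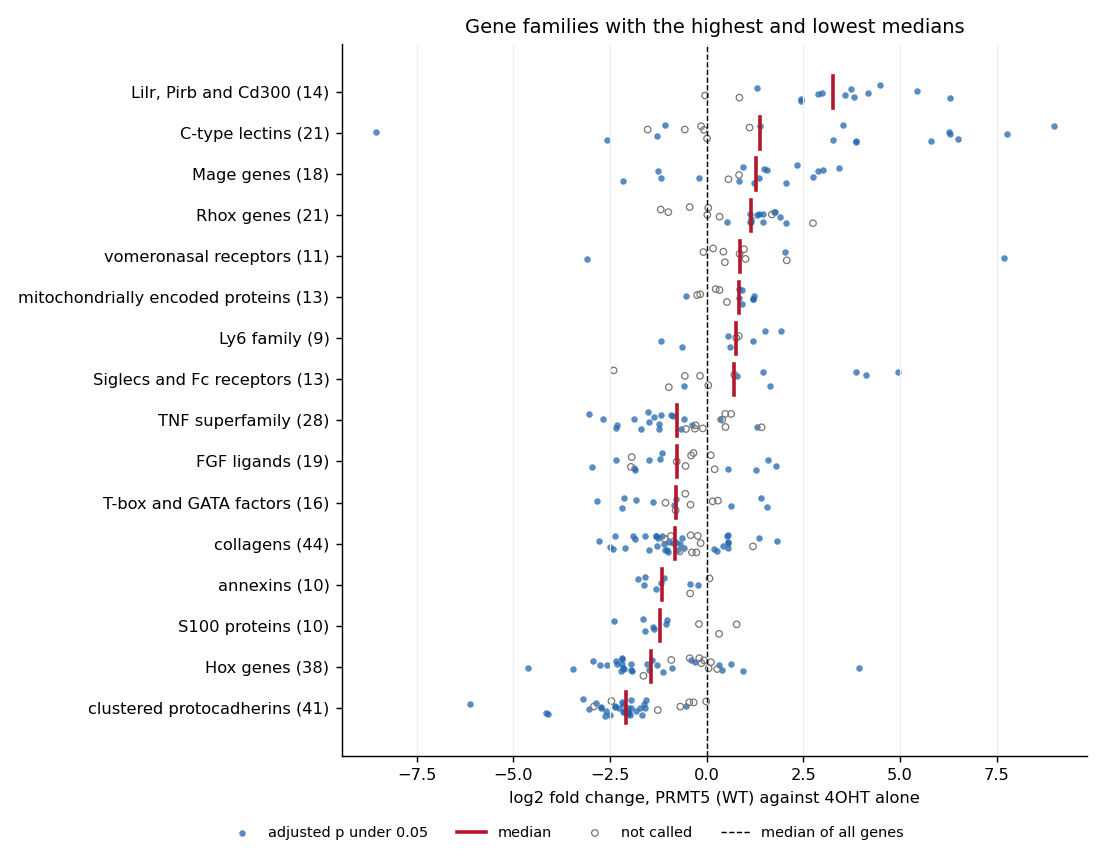
Log2 fold change of every tested member of the 8 gene families with the highest and the 8 with the lowest median, 1 point per gene, filled where the adjusted p was under 0.05, with the median as a bar. Families of myeloid receptors and of X-linked germline genes are at the top and clustered protocadherins and Hox genes at the bottom.

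Clustered protocadherins had the lowest median of all families. These cell surface proteins are made from arrays of alternative first exons, each with its own promoter, and give neurons their individual identity. Of 41 tested, 34 fell, 33 of them by at least 2-fold, and none rose (median -2.08). Pcdhgc3, the member with the highest CPM, was at 254, 293 and 336 CPM and at 71.4, 82.6 and 67.9 CPM (-1.99). Pcdhga9 was at 38.9, 54.6 and 54.3 CPM and at 0.332, 0.556 and 1.07 CPM, the largest fall among the abundant protein-coding genes (-6.12, SE 0.27), and Pcdhgb1 fell by 4.15 with a wide spread, its 3 libraries of 4OHT alone at 53.6, 42.2 and 13.6 CPM. The genes of the gamma cluster share their last exons, so how reads were divided among them is uncertain and single members are less certain than their sum, which was between 647 and 725 CPM and between 152 and 156 CPM. Of the 41, 1 was lower than with PRMT5 (E444Q), Pcdhga9, by 4.54 on the log2 scale, and 1 was higher, Pcdhgc3, by 0.40.

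Hox genes, which record position along the body axis, fell in 24 of 38 tested members and rose in 5 (median -1.44). The clusters differed in level and direction. Hoxb9 was at 47.7, 47.6 and 51.9 CPM and at 24.9, 25.9 and 27.9 CPM (-0.90), but Hoxb8, next to it, was at 36.4, 40.8 and 36.5 CPM and at 54.7, 59.7 and 61.0 CPM (0.63), and Hoxb7 also rose (0.41). The Hoxc genes with the highest CPM, Hoxc6 and Hoxc8, fell by 2.203 and 2.19 on the log2 scale, and Hoxa5 fell by 2.77. Of 16 T-box and GATA factors, 7 fell and 3 rose, with Gata6 at -2.83 and Tbx15 at -1.39. Of 19 FGF ligands, 7 fell and 4 rose, with Fgf7 (-1.87) and Fgf10 (-1.86) lower and Fgf13 (1.59) higher. Among 32 imprinted genes, 18 fell and 8 rose. Impact, expressed from the paternal copy, was at 167, 159 and 149 CPM and at 39.96, 40.2 and 39.7 CPM (-1.99), Igf2 fell by 1.24 and Igf2r by 0.93 on the log2 scale, and Peg10, a retrotransposon-derived gene, rose by 1.52.

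RNA processing genes moved little but mostly upward. Of 31 SR proteins and hnRNPs, the regulators of splicing, 21 rose and none fell (median 0.25), and Hnrnph3 alone exceeded 2-fold, at 33.3, 35.5 and 26.9 CPM and at 71.0, 70.7 and 68.0 CPM (1.13). Of 26 genes of the Sm, LSm and SMN complexes, several of them substrates of PRMT5, 15 rose and 2, Gemin7 and Gemin4, fell (median 0.32), with Snrpb, the gene of SmB, at 0.57. Of 34 ribosome biogenesis genes, 24 rose and 1, Polr1a, fell (median 0.32), and Npm1 (0.62) and Ncl (0.28) were higher. Of 29 genes of DNA methylation and Polycomb, 18 rose and 3 fell, with Dnmt3b (1.02), Cbx2 (1.01) and Ezh2 (0.70) higher and Tet2 (-1.03) and Dnmt3a (-0.48) lower. Of 26 cytosolic chaperones, 18 rose and 4 fell, the heat shock protein gene Hspa8 rising by 0.77 and the small heat shock protein gene Hspb1 falling by 1.91 on the log2 scale. Translation initiation factors were divided, with 8 of 35 higher (22.9%) and 11 lower (31.4%), against 35.1% and 32.3% of all protein-coding genes tested. Malat1, a nuclear retained RNA, was at 717, 738 and 573 CPM and at 225, 208 and 219 CPM (-1.64).

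Metabolic lists differed in direction. Of 29 entries for nucleotide synthesis, 17 rose and 7 fell, none by 2-fold (median 0.23). Of 51 nuclear genes of oxidative phosphorylation, 15 rose and 15 fell (29.4% each) and none reached 2-fold (median 0.02). These shares were near the 35.1% and 32.3% of all protein-coding genes tested. Transcripts of the mitochondrial genome rose in 7 of 13 genes and fell in 1, mt-Nd3 (median 0.82). mt-Co1, a subunit of cytochrome oxidase, was at 9822, 8464 and 7195 CPM with 4OHT alone and at 14477, 14838 and 15798 CPM with PRMT5 (WT) (0.82), and the share of all counts from the mitochondrial genome was between 1.31% and 1.89% and between 2.88% and 3.08%. Mitochondrial share is also used as a sign of RNA and cell quality, and its part in the other changes was not tested. Of 23 glycolysis entries, 13 fell and 5 rose, with Pkm at -0.73 and Hk2 at -1.17. Of 18 fatty acid synthesis genes, 13 fell and 2 rose (median -0.62), with Fasn, the synthase, at -0.86, Scd2 at -1.24 and Elovl6 at -1.76. Of 25 cholesterol synthesis genes, 13 fell and 7 rose, with Dhcr7 at 0.63. Of 32 antioxidant genes, 18 fell and 9 rose. Hmox1, heme oxygenase, was at 377, 390 and 434 CPM and at 107, 117 and 118 CPM (-1.81), whereas the peroxiredoxins Prdx1 (0.48) and Prdx4 (0.80) rose. Lysosomal genes fell in 30 of 39 and rose in 5 (median -0.59). Ctsl, cathepsin L, was at 1959, 1955 and 1838 CPM and at 436, 461 and 447 CPM (-2.10), and Ctsc (1.70) and Ctss (1.34), cathepsins of leukocytes, rose.

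The other lists were mixed, and a few leaned to one side. Of 33 interferon response genes, 10 rose and 12 fell, with Ifit2 at -1.81 and Oasl2 at -1.47. Of 32 synapse and neuronal genes, 13 rose and 14 fell, and Ncam1, a neural adhesion molecule, fell by 1.92 on the log2 scale. Of 22 genes of retinoic acid metabolism and response, the signal that drives spermatogonia to differentiate, 4 rose and 8 fell, with Crabp1, a retinoic acid binding protein, at 784 and 176.4 CPM in the means (-2.15). Of 21 genes of the unfolded protein response, 12 rose and 3 fell, none by 2-fold. Of 24 ATF4 targets, 6 rose and 12 fell, with the cystine transporter gene Slc7a11 at -1.76. Of 20 cytosolic aminoacyl-tRNA synthetases, 5 rose and 11 fell, none by 2-fold. Of 36 genes of cilia and axonemes, 16 rose and 9 fell. Among large families, 174 of 387 C2H2 zinc finger genes rose (45.0%) and 82 fell (21.2%), against 35.1% and 32.3% of all protein-coding genes tested. Of 294 solute carriers 92 rose (31.3%) and 101 fell (34.4%), near those shares. Of 49 proteasome genes 23 rose (46.9%) and 8 fell (16.3%). Semaphorins and plexins, guidance ligands and their receptors, fell in 22 of 29 genes and rose in 5, and tubulins fell in 11 of 16 and rose in 5.

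Ribosomal protein genes have many near-identical copies in the genome, and these copies are counted here as genes of their own. Of 86 cytosolic ribosomal protein genes, 17 rose and 28 fell, with a median of 0.01, and 5 rose by at least 2-fold. Rps2 was at 208, 221 and 171 CPM with 4OHT alone and at 1650, 1712 and 1578 CPM with PRMT5 (WT) (3.04), while its processed copies Rps2-ps13, at 592, 660 and 489 CPM and at 61.6, 69.4 and 61.2 CPM (-3.18), and Rps2-ps10 (-1.90) went the other way. Rps2 and the 10 copies named after it together were at 1131 and 1828 CPM in the means, a ratio of 1.62 in place of 8.23 for Rps2 alone. The copies held 82.3% of the joint counts with 4OHT alone and 9.94% with PRMT5 (WT). Rps18 rose by 3.38 and Rpl29 by 2.62, and adding their named copies changed the ratio of Rps18 from 10.4 to 7.02 and that of Rpl29 from 6.16 to 6.05. The 112 tested ribosomal protein copies summed to between 1912 and 2471 CPM with 4OHT alone and to between 1183 and 1263 CPM with PRMT5 (WT). Hmgb1, a chromatin protein gene, was at 62.2 and 234.5 CPM in the means, and its 10 copies held 21.1% and 2.86% of their joint counts. How reads that align to several genes were counted is not stated, nor whether library and read settings were the same in all groups. For genes with copies, a change in their RNA and a difference in how reads were placed cannot be told apart, and their levels and folds are uncertain. Gapdh, which has many copies in the mouse genome, was at only 32.2 and 47.5 CPM in the means.

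Chromosome 2 stood apart from the other autosomes. For the protein-coding genes with a mean of at least 5 CPM, the median log2 level of each chromosome was taken in each library, relative to the mean of 4OHT alone and to the median of all autosomes. For the 927 genes of chromosome 2 this was 0.00, -0.01 and 0.01 in the libraries of 4OHT alone and 0.23, 0.23 and 0.22 in those of PRMT5 (WT), with 0.23, 0.22 and 0.24 in those of PRMT5 (E444Q). The groups did not overlap, and the difference was 0.23 (permutation test, two-sided, p = 0.1, the smallest that 3 against 3 libraries allow). Each gene was set relative to the mean of 4OHT alone, so the libraries were not interchangeable and the p-value is only nominal. Of the genes of chromosome 2, 55.9% rose and 27.0% fell, against 37.3% and 37.7% of the 10343 genes of the other autosomes. The other autosomes had differences between -0.09 (chromosome 14) and 0.07 (chromosome 13), 10 of these 18 also without overlap and so with the same p. The rise was spread along chromosome 2, since all 9 windows of 20 Mb with at least 30 genes had a median log2 fold change between 0.14 and 0.36, a range whose lower end was reached by 12 of the 110 such windows on the other autosomes and by 4 of 9 on the X chromosome, where the highest was 0.34. Between PRMT5 (WT) and PRMT5 (E444Q) the median of chromosome 2 was 0.02. Pcna, Nusap1 and Ddb2, described above, lie on chromosome 2, as do Vim and Grem1.

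**Figure D5:**
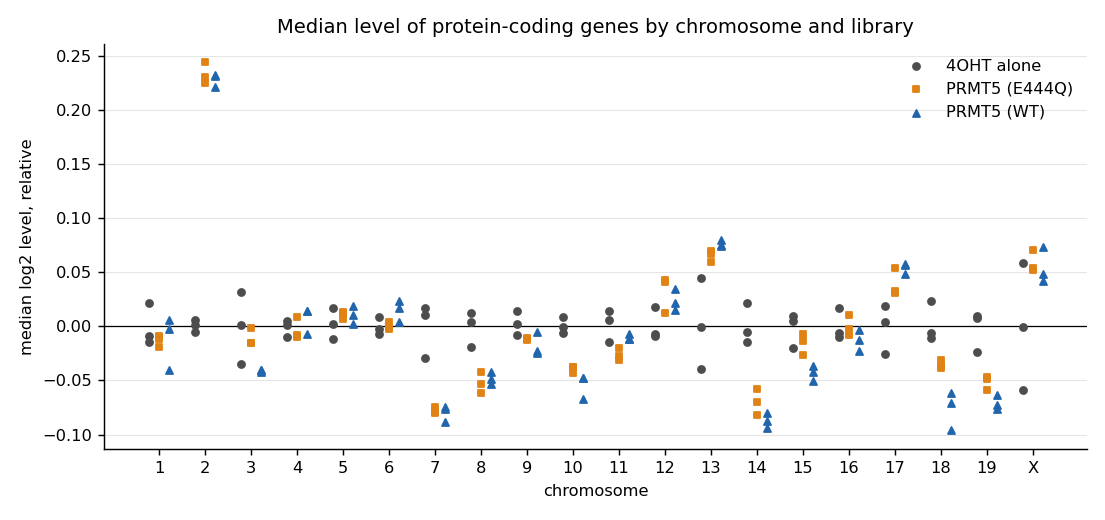
Median log2 level of protein-coding genes by chromosome in each library, relative to the mean of 4OHT alone and to the median of all autosomes, for genes with a mean of at least 5 CPM. Circles are 4OHT alone, squares PRMT5 (E444Q) and triangles PRMT5 (WT), and chromosome 2 lies at 0.22 to 0.24 in all libraries with a construct.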

How the data were processed

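RNA-seq libraries of cultured SSCs given 4OHT alone, with PRMT5 (E444Q) or with PRMT5 (WT) were used, 3 each. According to the submitters' processing notes and the study's methods, the authors trimmed reads with Trimmomatic (v0.39), aligned them to GRCm38 with HISAT2 (v2.2.1) and assembled transcripts with StringTie (v2.2.1), and deposited raw counts per gene. The handling of strand and of reads with several alignments is not stated. Totals per library were between 78751996 and 365719548 counts. A read pair was taken as about 4 counts, so 12 counts stand for 3 read pairs, or between 0.0766 and 0.158 CPM in the 6 libraries compared. This covers counting error only. Gene symbols are those deposited with the counts, and gene types and positions were taken from GENCODE vM21.

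Genes were kept by filterByExpr (minimum count 10, total 15). A model with group as its only term was fitted to all 9 libraries in edgeR (v4.0.16, R v4.3.3), with TMM scaling, the quasi-likelihood test and Benjamini-Hochberg adjustment over 22452 genes at 0.05. The biological coefficient of variation was 0.155. Scripts were tested on simulated data. A list was described by its counts and median, without a set test. Named genes were Prmt5, the 12 largest rises and falls among protein-coding genes of at least 20 CPM, and in each list the 3 members with the highest CPM and the largest called rise and fall. Some genes that the rule names are not reported here. Other genes named were chosen after their values were seen. The comparison, the lists and the rule were chosen with earlier results of these data known. Promoters were read from RefSeq. The alternatives were other scaling (DESeq2 v1.42.0 size factors, library size), the DESeq2 test, other filters, 6 libraries only, counts divided by 4, a length trend, a replicate block and each library left out.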

Additional observations from a re-analysis of the deposited data

How the results depend on the processing

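The counts of genes called between PRMT5 (WT) and 4OHT alone stayed within 1.5 times their value under each alternative tried. Rising genes numbered between 5815 and 7737 and falling genes between 5529 and 6632, and at 2-fold between 1413 and 2431 and between 2231 and 3007. Library size in place of TMM moved the median of all genes from 0.02 to 0.11. With the replicate block, 6661 genes rose and 6146 fell. The replicate numbers did not pair the libraries, since the deviations of same-numbered libraries correlated between -0.019 and 0.043.

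The counts against PRMT5 (E444Q), 237 higher and 475 lower, were less stable. They were 743 and 822 with only the 6 libraries of these groups and 427 and 713 with DESeq2. With 1 library left out at a time they ranged from 144 to 413 higher and from 256 to 686 lower, with the highest counts without 4OHT replicate 3 and the lowest without PRMT5 (E444Q) replicate 2. Under the replicate block, 230 were higher, and the count of lower genes stayed within 1.5 times its value. The cause was not tested.

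Of the 249 genes named, 234 kept their direction and their side of the threshold in every setting that gave a value, Prmt5 among them. The direction reversed for 4 genes that were not called. With library size only, their log2 fold changes were 0.0345 for Clns1a, 0.0636 for Jund, 0.0186 for Mybl1 and 0.0599 for Pou3f1. With 1 library left out at a time, they ranged from -0.1542 to 0.1476 for Jund, from -0.2129 to 0.0373 for Mybl1 and from -0.159 to 0.0792 for Pou3f1. Calls of small changes were lost in 1 or more settings for Ccnb2, Cdc20, Egr1, Lama5, Maged1, Mcm2, Mcm7, Spry1 and mt-Nd3, and gained for Dusp1, Fcgr1 and Pou3f1. The median of the FGF ligands was -0.78, and 0.17 with a filter at 1 CPM, which tests fewer of them.

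In 12 counts per library or less, that is under about 0.2 CPM, a gene cannot be told from an absent one at this depth. Reads shared by near-identical gene copies, and RNA of other cell types in the cultures, could not be separated in these counts.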

Other observations

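Chemokines and receptors of inflammation moved in both directions. Of 25 chemokines tested, 10 rose and 9 fell. Ccl2 was at 452 CPM with 4OHT alone and 85.4 CPM with PRMT5 (WT) in the group means (-2.40), Ccl7 fell by 1.79 and Cxcl1 by 1.56 on the log2 scale, whereas Ccl6 (3.10), Ccl9 (4.42) and Ccl3 (5.18), chemokines of macrophages, rose. Of 34 interleukin receptor genes, 16 fell and 9 rose. The largest fall among those of at least 5 CPM was that of Il1rl1, the receptor for IL-33 that mast cells and basophils also carry, from 218 to 19.5 CPM (-3.48), next to Il18rap (-3.33), and Il17ra rose by 1.66. Of 36 cytokine and growth factor receptors, 14 rose and 17 fell, with Pdgfrb (-1.76), Egfr (-1.35) and Fgfr1 (-1.11) lower and Csf2rb (2.92), a subunit of the GM-CSF receptor, and Cxcr4 (1.38) higher. Of 26 toll-like and NOD-like receptors, 14 rose and 4 fell. They comprised sensors of myeloid cells such as Tlr7 (3.54), Tlr13 (2.84) and Nlrp3 (3.51), and also Nlrp4c, a member expressed in germ cells, at 109.2 and 248 CPM (1.18).

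Of 49 myosins tested, 19 rose (38.8%) and 14 fell (28.6%), near the 35.1% and 32.3% of all protein-coding genes tested. Myl9, a light chain of smooth muscle and non-muscle cells, was at -1.86 and Myo1c at -1.24. Myo1g (5.77) and Myo1f (3.49), myosins of blood cells, and Myo7a (3.04) rose. Among semaphorins and plexins, Plxna2 (-3.28), Sema3a (-3.20) and Plxnb2 (-1.43) fell, and Sema4a (1.58) and Sema6d (0.91) rose. Of 12 endothelial markers tested, 4 rose (33.3%) and 2 fell (16.7%), the rise near the share of all protein-coding genes. Of 10 Sertoli cell markers, 4 rose and 4 fell, among the latter Sox9 (-1.42) and Clu (-1.74). What share of these changes came from other cell types was not tested.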
